A study of Arabidopsis thaliana with 24 samples.

Results

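The results concern how the difference between the mutant rpt2-3a and its wild type Col-0 depends on the organ in Arabidopsis thaliana plants kept on medium deficient in sulfur. They rest on the 12 arrays of deficient plants among the 24 arrays of the series, with 3 arrays in each of 4 groups: rpt2-3a roots, Col-0 roots, rpt2-3a rosettes and Col-0 rosettes. Col-0 is the reference accession, and rpt2-3a is a mutant named after the proteasome subunit RPT2. All plants grew in hydroponic culture under short days of 8 h light and 16 h dark. They had 5 weeks of complete medium and then 5 days on deficient medium, so deficiency is shared by both genotypes. The other 12 arrays come from the same genotypes and organs at normal supply, from plants that stayed on complete medium, and serve here as a second set of arrays. How many plants were pooled per array, and whether roots and rosettes of one number came from one plant, is not given in the sources used here.

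The 26S proteasome degrades proteins tagged with ubiquitin. RPT2 is one of the ATPases in the base of its regulatory particle, which unfold substrates and open the gate of the catalytic core. Sulfur is taken up as sulfate by roots and reduced mostly in leaves, and under deficiency plants raise the expression of uptake and recycling genes, among them the markers SDI2 and BGLU28, and lower glucosinolate synthesis.

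For each of 28583 array features the mutant effect is the mean of rpt2-3a minus the mean of Col-0 within an organ, in log2 units. The organ difference is the mutant effect in roots minus the mutant effect in rosettes, so a positive one means that the effect was more positive in roots. One limma model with a mean for each of the 4 groups gave all 3 values with their standard errors (SE), and a value passed at a Benjamini-Hochberg adjusted p under 0.05 over all features. The p-values measure the spread between arrays that the series' design text describes as biological replicates. Fold changes assume that the deposited values are base 2. Of the features, 16746 carry exactly 1 gene, and only these are given gene names.

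Organ labels held on every array for the measured markers. RCA, the activase of Rubisco, averaged 3.56 in rpt2-3a roots and 3.9 in Col-0 roots, and 10.85 and 10.86 in rpt2-3a and Col-0 rosettes. EXPA7, a root hair expansin, averaged 7.76 and 7.69 in rpt2-3a and Col-0 roots against 2.4 and 2.05 in the rosettes of the same genotypes. No feature named for RPT2A or RPT2B was measured, and the mutated gene therefore gave no check of the genotype labels. Arrays of one group correlated with r between 0.99 and 0.994 across features. The median value of an array was 4.49 to 4.55 in roots and 4.03 to 4.13 in rosettes.

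The mutant effect differed between organs for 134 of 28583 features (0.469%). It was more positive in roots for 105 of them (0.367%) and more negative in roots for 29 (0.101%), and 92 differed by at least 2-fold. A single gene was named for 57 of the 134, 40 more positive and 17 more negative in roots. Within roots the mutant effect passed for 299 features (1.05%), 201 higher (0.703%) and 98 lower (0.343%) in rpt2-3a. Within rosettes it passed for 241 (0.843%), 78 higher (0.273%) and 163 lower (0.57%). The split was thus towards higher values in mutant roots and towards lower values in mutant rosettes, while the median effect over all features was -0.01 in roots and 0.02 in rosettes.

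The 134 features fell into a root side and a rosette side of similar size. On the root side, 57 features had a mutant effect that passed in roots and not in rosettes, 44 higher and 13 lower in rpt2-3a. Their median size was 1.02 log2 units in roots and 0.16 in rosettes. On the rosette side, 64 features passed in rosettes and not in roots, 14 higher and 50 lower in rpt2-3a, with a median size of 0.18 in roots and 0.97 in rosettes. The remainder were 3 features that passed in both organs with opposite signs, 1 that passed in both with one sign, and 9 that passed in neither organ alone.

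**Figure D1:**
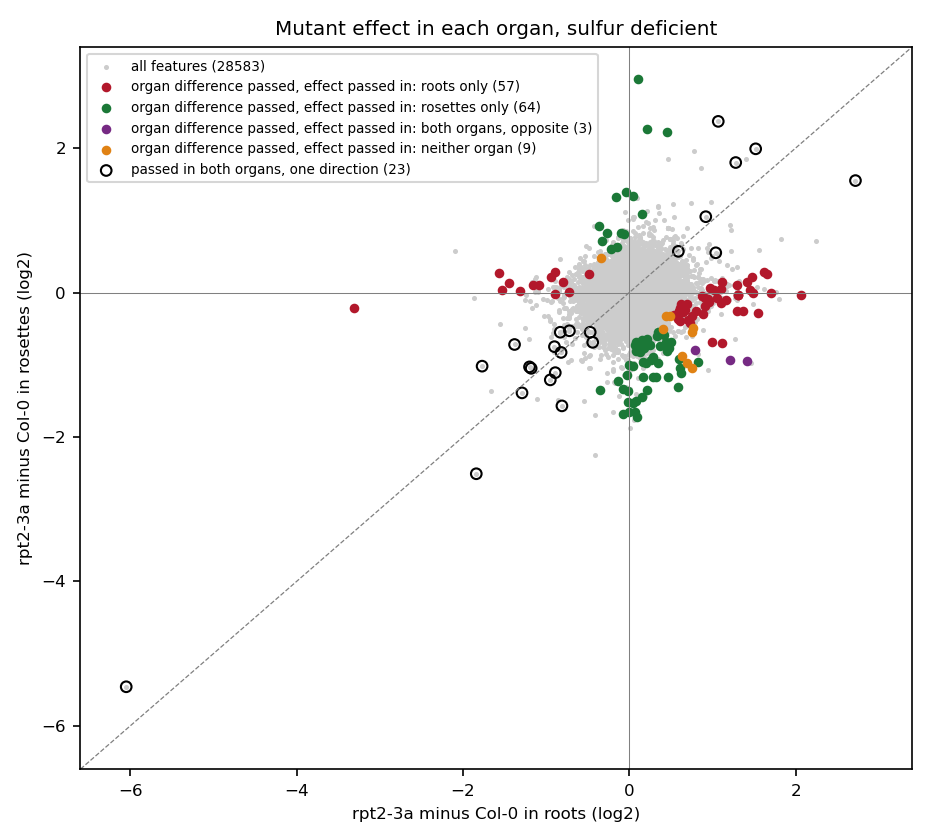
Mutant effect in roots (horizontal axis, log2) against mutant effect in rosettes (vertical axis, log2) for all 28583 features under sulfur deficiency. Coloured points are features whose organ difference passed, by the organ in which the effect itself passed, and open circles are the 23 features that passed in both organs with one sign, of which 1, AT1G66810, also passed for the organ difference. Root-side and rosette-side points lie along the horizontal and vertical axes. The circles lie at varying distances from the dashed line of equal effects, and AT1G66810 and AT3G56210 are well off it.

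Passing in one organ and not in the other did not by itself amount to an organ difference. Of the 273 features that passed in roots and not in rosettes, the organ difference passed for 57 (20.9%). Of the 215 that passed in rosettes and not in roots, it passed for 64 (29.8%). Of all root calls, 187 of 299 (62.5%) had the same sign in rosettes, and of all rosette calls 140 of 241 (58.1%) had the same sign in roots. Over all features the effects had opposite signs in 47%. Among the 134 called organ differences the share with opposite signs was 79.9%, a share that choosing by the difference itself raises.

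The number of calls depended on single arrays. It was 38 without array 1 of Col-0 roots, 57 without array 3 of Col-0 roots and 49 without array 2 of rpt2-3a roots. It was 44 and 51 without arrays 1 and 3 of rpt2-3a rosettes, and 59 and 55 without arrays 2 and 3 of Col-0 rosettes. The other 5 fits without 1 array gave 98 to 134 calls, and 31 of the 134 features passed in all 12 such fits.

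Among genes higher in mutant roots, the germin-like protein gene AT5G38910 had the largest organ difference. Germin-like proteins are secreted proteins related to germin, an enzyme of the cell wall. AT5G38910 had values of 5.43, 5.68 and 5.65 in rpt2-3a roots against 3.84, 3.29 and 3.43 in Col-0 roots. In rosettes it had 2.6, 2.55 and 2.36 in rpt2-3a and 2.46, 2.62 and 2.55 in Col-0. The root arrays of the genotypes did not overlap, while the rosette arrays were all low and interleaved. All 57 called organ differences with 1 gene had genotypes that did not overlap in at least 1 organ. Over all features the share without overlap was 15.1% in roots and 16.7% in rosettes. Such separation goes with the call and is no further support for it. AT5G38910 was 4.19-fold higher in mutant roots (2.07 ± 0.14 SE, limma adjusted p = 4.4e-06), its effect in rosettes was -0.04 ± 0.14 (adjusted p = 0.97), and the organ difference was 2.11 ± 0.19 (adjusted p = 0.00031).

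AT1G49570 encodes a class III peroxidase, a secreted enzyme family that acts on phenolics and reactive oxygen in cell walls. Its values were 8.59, 8.48 and 8.45 in rpt2-3a roots against 6.61, 6.81 and 6.98 in Col-0 roots, and 2.27, 2.05 and 2.25 in rpt2-3a rosettes against 2.18, 2.05 and 2.34 in Col-0 rosettes. Every mutant root array was above every wild type root array, and rosettes of both genotypes stayed at the low end of the scale. It was 3.26-fold higher in mutant roots (1.71 ± 0.12, adjusted p = 7e-06), with an organ difference of 1.71 ± 0.17 (adjusted p = 0.00061).

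AT4G30380, an expansin-like gene that RefSeq lists as EXLB2, was also higher in mutant roots. It had 5.02, 5.01 and 4.65 in rpt2-3a roots against 3.16, 3.53 and 3.34 in Col-0 roots, and 2.13, 2.2 and 2.26 in rpt2-3a rosettes against 2.47, 2.3 and 2.66 in Col-0 rosettes. The genotypes were apart in both organs, upward in mutant roots and downward in mutant rosettes, though the effect in rosettes did not pass. The effects were 1.55 ± 0.14 in roots (2.93-fold, adjusted p = 5.5e-05) and -0.28 ± 0.14 in rosettes (adjusted p = 0.46), and the organ difference was 1.83 ± 0.19 (adjusted p = 0.00061).

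Lower in mutant roots was above all AT5G15360, the gene with the largest organ difference of either sign. It had 3.58, 3.43 and 3.25 in rpt2-3a roots against 6.63, 6.81 and 6.75 in Col-0 roots, and 3.75, 3.53 and 3.34 in rpt2-3a rosettes against 3.7, 3.94 and 3.62 in Col-0 rosettes. Mutant roots were thus at the level of rosettes of both genotypes, and wild type roots alone stood high. The gene was 9.92-fold lower in mutant roots (-3.31 ± 0.13, adjusted p = 5.9e-09), and the effect in rosettes was -0.21 ± 0.13 (adjusted p = 0.6), which gave an organ difference of -3.1 ± 0.19 (adjusted p = 3.3e-06).

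A further 4 named genes were lower in mutant roots, and their effects in rosettes did not pass. AT1G75290, an isoflavone reductase-like gene, had 4.93, 4.85 and 4.91 in rpt2-3a roots against 6.47, 6.55 and 6.25 in Col-0 roots (2.88-fold lower, -1.53 ± 0.18, adjusted p = 0.00077). Its rosette values were 2.9, 3.26 and 2.8 in rpt2-3a and 3, 3.37 and 2.5 in Col-0, an effect of 0.03, and the organ difference was -1.56 ± 0.26 (adjusted p = 0.021). The root arrays were clear of each other and the rosette arrays overlapped.

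AT4G31330 had 4.98, 5.01 and 4.7 in rpt2-3a roots against 6.24, 6.27 and 6.15 in Col-0 roots (-1.32 ± 0.12, adjusted p = 6.1e-05), and AT4G37220, of the cold-acclimation WCOR413 family, had 4.24, 4.44 and 4.64 against 5.68, 5.71 and 5.42 (-1.16 ± 0.16, adjusted p = 0.0026). The roots of the genotypes did not overlap for either gene. AT3G45160 was lower by a smaller amount, with 5.05, 4.63 and 4.94 in rpt2-3a roots against 5.85, 5.69 and 5.76 in Col-0 roots (-0.89 ± 0.15, adjusted p = 0.0083). The effects of these 3 genes in rosettes were 0.02, 0.1 and 0.28, and their organ differences were -1.35, -1.26 and -1.17 (adjusted p = 0.0026, 0.026 and 0.024).

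Many root-side features had low values in rosettes, while rosette-side features were no lower in roots than features in general. The mean in rosettes lay under 2.44, the lower quartile of all features there, for 26 of the 57 root-side features. The mean in roots lay under 2.61, the lower quartile there, for 17 of the 64 rosette-side features, near the share that a quartile marks. Values that low leave little room for a decrease on this scale. The median of the rosette means was 2.58 for root-side features, against 4.09 over all features. The median of the root means was 4.9 for rosette-side features, against 4.52 over all features. The array measures RNA of whole organs, so fewer cells that express a gene and less of its RNA per cell cannot be told apart.

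**Figure D2:**
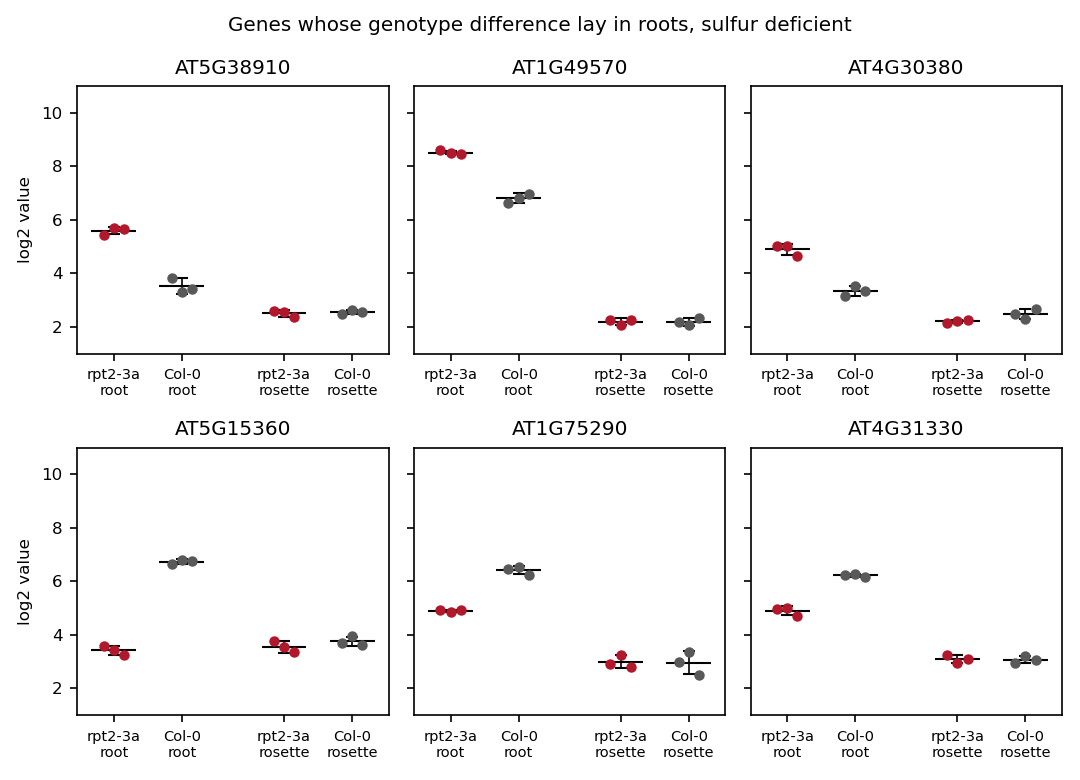
Values on each array (points, log2) for 6 genes whose genotype difference lay in roots under sulfur deficiency, with means (horizontal lines) and SD (bars) of 3 arrays. AT5G38910, AT1G49570 and AT4G30380 are higher, and AT5G15360, AT1G75290 and AT4G31330 lower, in rpt2-3a roots than in Col-0 roots. The rosette values of the genotypes lie close together, though AT4G30380 is lower on every rpt2-3a rosette array.

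On the rosette side, the named genes higher in the mutant were led by AT3G48640 and AT3G22235. AT3G48640 had 5.83, 5.57 and 5.39 in rpt2-3a rosettes against 2.94, 3.74 and 3.31 in Col-0 rosettes, and 2.38, 2.47 and 2.03 in rpt2-3a roots against 2.16, 2.1 and 2 in Col-0 roots. AT3G22235 had 7.42, 7.29 and 6.99 in rpt2-3a rosettes against 4.95, 5.07 and 5.01 in Col-0 rosettes, and 3.38, 3.88 and 3.35 in rpt2-3a roots against 2.96, 3.2 and 3.1 in Col-0 roots. Mutant rosettes were well above wild type rosettes for both, and roots were low. For AT3G22235 every mutant root array was also above every wild type root array. The genotypes did not overlap in roots for 15.1% of all features.

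AT3G48640 was 4.81-fold higher in mutant rosettes (2.27 ± 0.18, adjusted p = 2.9e-05) and differed between organs by -2.06 ± 0.26 (adjusted p = 0.0026). AT3G22235 was 4.67-fold higher (2.22 ± 0.15, adjusted p = 4.5e-06) with an organ difference of -1.77 ± 0.21 (adjusted p = 0.0018). Their effects in roots were 0.21 and 0.45 and did not pass (adjusted p = 0.76 and 0.22). A larger rise in mutant rosettes, 2.96 ± 0.13, belonged to a feature without a gene, chosen here after its values were seen, whose effect in roots was 0.1.

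Other genes whose rise passed in mutant rosettes alone were measured over a wide range of levels. AT3G16670, of the family of pollen Ole e 1 allergen and extensin-like proteins, had 8.13, 8.08 and 8.5 in rpt2-3a rosettes against 6.73, 7.45 and 6.58 in Col-0 rosettes (1.32 ± 0.18, adjusted p = 0.0031). AT5G57760 had 6.21, 6.28 and 6.42 against 5.12, 4.97 and 4.82 (1.33 ± 0.12, adjusted p = 8.7e-05). The MADS-box gene AGL38, also called PHERES2, had 3.28, 3.57 and 3.35 against 1.95, 2.11 and 1.97 (1.39 ± 0.13, adjusted p = 8.7e-05).

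For these 3 genes the rosettes of the genotypes did not overlap, as for 16.7% of all features. Both genotypes had low values in roots, with every root array at or below 2.63. The organ differences of AT3G16670, AT5G57760 and AGL38 were -1.47, -1.3 and -1.43 (adjusted p = 0.024, 0.004 and 0.0026). AT3G61826 was higher in mutant rosettes by 0.92 ± 0.18 (adjusted p = 0.027), with an effect of -0.37 in roots (adjusted p = 0.48) and an organ difference of -1.29 (adjusted p = 0.044).

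Among the genes lower in mutant rosettes were 2 of amino acid breakdown. AT4G33150 encodes the bifunctional enzyme LKR/SDH, which starts the breakdown of lysine. It had 4.57, 5.84 and 5.29 in rpt2-3a rosettes against 6.58, 6.88 and 7.21 in Col-0 rosettes, and 6.99, 6.94 and 6.93 in rpt2-3a roots against 6.91, 7.11 and 6.85 in Col-0 roots. The mutant rosettes were low, and the other 3 groups overlapped. The gene fell 3.15-fold in mutant rosettes (-1.66 ± 0.24, adjusted p = 0.0039), its effect in roots was 0 ± 0.24, and the organ difference of 1.65 ± 0.34 was just inside the threshold (adjusted p = 0.049).

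ALDH7B4, an aldehyde dehydrogenase of lysine breakdown and stress responses, also fell in mutant rosettes, by less. Its values were 6.94, 7.23 and 6.93 in rpt2-3a rosettes against 7.62, 7.83 and 7.83 in Col-0 rosettes, and 7.12, 7.3 and 7.17 in rpt2-3a roots against 6.89, 6.94 and 7 in Col-0 roots. Mutant arrays were all lower in rosettes and all higher in roots. The effect passed in rosettes (-0.73 ± 0.11, adjusted p = 0.0065) and not in roots (0.25, adjusted p = 0.41), and the organ difference was 0.98 ± 0.16 (adjusted p = 0.018). These were 2 of the 5 measured genes listed for starvation and amino acid breakdown, and the other 3, ETFQO, ALDH6B2 and D2HGDH, passed in no comparison. Of all features, 0.57% passed as lower in rosettes and 0.367% as a positive organ difference.

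CHI (AT2G43570), a putative chitinase, had the second largest positive organ difference of the named genes. It had 5.46, 6.34 and 5.05 in rpt2-3a rosettes against 6.65, 6.83 and 7.31 in Col-0 rosettes, and 7.16, 7.45 and 7.29 in rpt2-3a roots against 6.63, 6.76 and 6.75 in Col-0 roots. The genotypes were apart in both organs and in opposite directions. The effect in rosettes was -1.31 ± 0.25 (adjusted p = 0.023), the effect in roots 0.59 ± 0.25 did not pass (adjusted p = 0.38), and the organ difference was 1.9 ± 0.35 (adjusted p = 0.032).

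AT1G30700, an enzyme gene of the berberine bridge family, behaved likewise, with 4.06, 3.84 and 3.48 in rpt2-3a rosettes against 4.34, 5.06 and 4.74 in Col-0 rosettes (-0.92 ± 0.18, adjusted p = 0.027). In roots it had 6.14, 6.08 and 6.04 in rpt2-3a against 5.36, 5.74 and 5.37 in Col-0 (0.6 ± 0.18, adjusted p = 0.17). Its genotypes were again apart in both organs in opposite directions, and its organ difference was 1.52 ± 0.25 (adjusted p = 0.022).

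AT1G09500, related to cinnamyl alcohol dehydrogenases, had 3.39, 4.55 and 3.87 in rpt2-3a rosettes against 5.35, 5.57 and 5.94 in Col-0 rosettes (3.21-fold lower, -1.68 ± 0.23, adjusted p = 0.0026) and at most 1.98 in any root array. AT5G28237 had 4.31, 4.69 and 4.68 against 6.1, 6.19 and 5.75 in rosettes (2.74-fold lower, -1.45 ± 0.16, adjusted p = 0.00032). Neither gene overlapped between genotypes in rosettes, and their effects in roots were -0.08 and 0.15.

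AT1G05340, which encodes a small membrane protein of the cysteine-rich stress family, had 4.28, 5.28 and 4.51 in rpt2-3a rosettes against 5.99, 5.84 and 6.3 in Col-0 rosettes (-1.35 ± 0.21, adjusted p = 0.0066). AT2G31945 had 2.92, 3.6 and 3.09 against 4.2, 4.29 and 4.62 (-1.17 ± 0.17, adjusted p = 0.005). Both were lower on every mutant rosette array. The organ differences of AT1G09500, AT5G28237, AT1G05340 and AT2G31945 were 1.61, 1.6, 1.57 and 1.46 (adjusted p = 0.045, 0.0046, 0.036 and 0.022). JMT, the methyltransferase that makes methyl jasmonate, had 2.99, 3.09 and 2.9 in rpt2-3a rosettes against 3.85, 3.69 and 3.56 in Col-0 rosettes (-0.71 ± 0.1, adjusted p = 0.0043), and an organ difference of 0.79 ± 0.15 (adjusted p = 0.03).

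Several of these calls were fragile, on the rosette side and on the root side. Of the 24 named organ differences, 11 passed in all 12 fits without 1 array, and all 24 kept their sign there. AT4G33150 and AT1G09500 each lost the call in 10 of the 12 fits, with adjusted p up to 0.13. AT3G61826 also lost it in 10, with adjusted p up to 0.11, AT1G05340 in 9, with adjusted p up to 0.11, and CHI in 9, with adjusted p up to 0.096. AT3G16670 lost it in 7, with adjusted p up to 0.072. On the root side, AT4G37220 lost it in 8, with adjusted p up to 0.082, and AT3G45160 in 7, with adjusted p up to 0.076. AT1G75290 lost it in 2, with adjusted p up to 0.059. The other root-side genes described above, AT5G38910, AT1G49570, AT4G30380, AT5G15360 and AT4G31330, kept it in all 12. AGL38 kept the call in all 12 and lost it in 1 of 8 other alternatives, with adjusted p up to 0.3. At normal supply AGL38 had 3.58, 2.12 and 4.57 in rpt2-3a rosettes, which overlapped with 2.16, 2.07 and 1.61 in Col-0 rosettes.

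**Figure D3:**
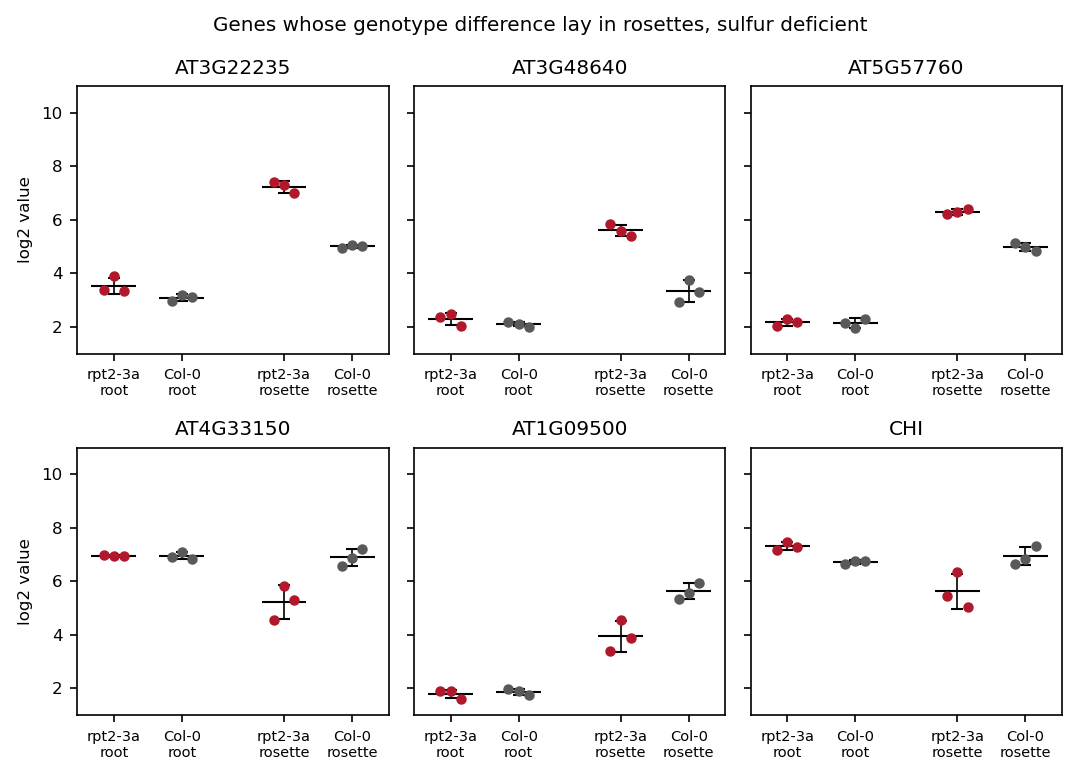
Values on each array (points, log2) for 6 genes whose genotype difference lay in rosettes under sulfur deficiency, with means (horizontal lines) and SD (bars) of 3 arrays. AT3G22235, AT3G48640 and AT5G57760 are higher, and AT4G33150, AT1G09500 and CHI lower, in rpt2-3a rosettes than in Col-0 rosettes, and CHI is higher on every mutant root array.

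AT1G49450, a gene for a WD40-repeat protein, had effects of opposite sign, of which the one in rosettes passed. It had 6.91, 7.3 and 7.25 in rpt2-3a roots against 6.32, 6.81 and 6.49 in Col-0 roots, and 4.61, 4.99 and 4.72 in rpt2-3a rosettes against 5.66, 6.01 and 5.76 in Col-0 rosettes. The genotypes did not overlap in either organ. The effect was 0.61 ± 0.16 in roots (adjusted p = 0.088) and -1.04 ± 0.16 in rosettes (adjusted p = 0.0052), with an organ difference of 1.65 ± 0.22 (adjusted p = 0.0039).

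No named gene passed in both organs with opposite signs. The 3 features that did carry no gene name, and all were higher in mutant roots and lower in mutant rosettes. Their effects were 1.41, 1.21 and 0.79 in roots (adjusted p = 0.0025, 0.0042 and 0.034) and -0.95, -0.93 and -0.79 in rosettes (adjusted p = 0.033, 0.023 and 0.038). The count ranged from 0 to 4 over the fits without 1 array. It was 0 without array 1 or 3 of rpt2-3a rosettes, and 1 without array 2 of rpt2-3a rosettes or array 2 or 3 of Col-0 rosettes.

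The transcription factor gene BHLH92 was among the 9 features whose organ difference passed while neither organ did. It had 2.97, 3.74 and 2.92 in rpt2-3a roots against 2.56, 2.6 and 2.39 in Col-0 roots, and 2.51, 2.61 and 1.69 in rpt2-3a rosettes against 3.35, 3.17 and 3.19 in Col-0 rosettes. The genotypes were apart in each organ, in opposite directions, though all values were low. The organ difference was 1.66 ± 0.33 (adjusted p = 0.044), with 0.69 in roots (adjusted p = 0.22) and -0.97 in rosettes (adjusted p = 0.074). The call of the organ difference was lost in 9 of the 12 fits without 1 array, with adjusted p up to 0.12.

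A shared effect had to pass in each organ, so the count of shared effects cannot be set against the count of organ differences. The mutant effect passed with one sign in both organs for 23 features (0.0805%), 7 higher and 16 lower in rpt2-3a, which is 7.69% of the root calls and 9.54% of the rosette calls. A single gene was named for 8 of them. The organ difference passed for 1 of the 23, AT1G66810, and for the others a missed threshold does not show equal effects, so intervals of the difference are given. The count of 23 was 14 without any 1 of the rpt2-3a rosette arrays, and 15 without array 3 of Col-0 rosettes, array 1 of Col-0 roots or array 2 of rpt2-3a roots.

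AT3G01345 had the largest shared effect of the 23 features. It had 3.87, 3.65 and 4.16 in rpt2-3a roots against 9.98, 9.85 and 9.99 in Col-0 roots, and 3.81, 3.94 and 4.79 in rpt2-3a rosettes against 9.86, 9.62 and 9.43 in Col-0 rosettes. All 6 mutant arrays were low and all 6 wild type arrays high, in either organ. The fold was 66.1 in roots (-6.05 ± 0.21, adjusted p = 2.2e-09) and 43.9 in rosettes (-5.46 ± 0.21, adjusted p = 9.1e-09), and the organ difference of -0.59 had a 95% interval from -1.24 to 0.06.

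AT1G62310, which encodes a protein with the JmjC domain of histone demethylases, had 5.22, 5.03 and 4.35 in rpt2-3a roots against 6.46, 6.6 and 6.85 in Col-0 roots. In rosettes it had 6.51, 6.31 and 6.48 in rpt2-3a against 7.56, 7.67 and 7.12 in Col-0. It was lower on every mutant array of each organ. It fell by 1.77 on the log2 scale in mutant roots (adjusted p = 0.00048) and by 1.02 in mutant rosettes (adjusted p = 0.027), and the interval of the organ difference ran from -1.36 to -0.15 while its adjusted p was 0.38. The call in rosettes was lost in 5 of the 12 fits without 1 array, with adjusted p up to 0.11.

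SDI2 (AT1G04770), known as a marker of sulfur deficiency, was lower in both organs of the mutant. In Col-0 roots its mean was 5.46 at normal supply and 6.59 under deficiency. In Col-0 rosettes the means were 5.47 and 4.98, so the marker was not higher under deficiency there. The change between supplies was not tested. It had 5.76, 5.67 and 5.65 in rpt2-3a roots against 6.68, 6.71 and 6.38 in Col-0 roots, and 4.23, 4.35 and 4.12 in rpt2-3a rosettes against 5.3, 4.67 and 4.98 in Col-0 rosettes. The genotypes were apart in both organs. The effects were -0.9 ± 0.15 in roots (1.86-fold, adjusted p = 0.0083) and -0.75 ± 0.15 in rosettes (1.68-fold, adjusted p = 0.026), with an organ difference of -0.15 and an interval from -0.59 to 0.3. The call in rosettes was lost without array 1 or 3 of Col-0 rosettes and without any 1 of the rpt2-3a rosette arrays, with adjusted p up to 0.11, and in 2 of 9 other alternatives, with adjusted p up to 0.098.

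BGLU28, a beta-glucosidase and the other named sulfur marker, passed in roots alone. It had 2.74, 3.44 and 3.28 in rpt2-3a roots against 5.35, 5.08 and 4.02 in Col-0 roots, and 2.84, 2.67 and 2.67 in rpt2-3a rosettes against 4.68, 3.92 and 3.69 in Col-0 rosettes. Both organs had all mutant arrays below all wild type arrays. In Col-0 roots the mean of BGLU28 was 2.71 at normal supply and 4.82 under deficiency. In Col-0 rosettes its means were 2.66 and 4.1, so this marker was higher under deficiency in both organs. That change was not tested either. The mutant effect was -1.66 ± 0.31 in roots (3.17-fold, adjusted p = 0.017) and -1.37 ± 0.31 in rosettes (2.58-fold, adjusted p = 0.055). The call in roots was lost in 3 of the 12 fits without 1 array, with adjusted p up to 0.09. The organ difference of -0.29 had an interval from -1.22 to 0.63.

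The difference between organs in which BGLU28 passed was therefore not an organ difference by the test. MSRB6, the third measured sulfur marker, had effects of -0.12 in roots and 0.01 in rosettes and passed in neither.

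AT3G56210 had the largest shared rise, on 1 of its 2 features. That feature had 6.49, 6.06 and 5.11 in rpt2-3a roots against 2.61, 3.64 and 3.25 in Col-0 roots, and 6.3, 6.17 and 6.02 in rpt2-3a rosettes against 4.5, 4.51 and 4.84 in Col-0 rosettes. The mutant reached about the same level in both organs and the wild type was lower in roots than in rosettes. The effects were 2.72 ± 0.29 in roots (6.59-fold, adjusted p = 0.00029) and 1.55 ± 0.29 in rosettes (2.92-fold, adjusted p = 0.023). The organ difference, 1.17 ± 0.41, had an adjusted p of 0.33 and an interval from 0.29 to 2.06. The features of the gene disagreed, since the other one had effects of 0.06 in roots and -0.13 in rosettes (adjusted p = 0.94 and 0.83). The call in rosettes was lost without any 1 of the 6 rosette arrays, with adjusted p up to 0.096, and with all 24 arrays in 1 fit (adjusted p = 0.19).

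AT1G66810, which encodes a zinc finger protein of the CCCH type, was higher in both organs of the mutant and more so in rosettes. It had 4.9, 5.37 and 4.94 in rpt2-3a roots against 3.65, 4.15 and 4.19 in Col-0 roots, and 5.66, 5.27 and 5.74 in rpt2-3a rosettes against 3.35, 3.12 and 3.09 in Col-0 rosettes. The genotypes did not overlap in either organ. The effects were 1.07 ± 0.17 in roots (2.1-fold, adjusted p = 0.0083) and 2.37 ± 0.17 in rosettes (5.17-fold, adjusted p = 1.2e-05), and the organ difference was -1.3 ± 0.25 (adjusted p = 0.037). That call was lost in 8 of the 12 fits without 1 array, with adjusted p up to 0.1.

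The remaining shared genes were AT2G24040, AT2G17300 and AT1G53610. AT2G24040, of a family responsive to low temperature and salt, had effects of -0.81 in roots (adjusted p = 0.015) and -1.57 in rosettes (adjusted p = 8.7e-05). Its organ difference of 0.76 had an interval from 0.32 to 1.2, which leaves out 0, and an adjusted p of 0.17. At normal supply its organ difference passed (1.17, adjusted p = 0.024), and its root effect of -0.49 did not (adjusted p = 0.22). The root call of AT2G24040 was lost in 2 of the 12 fits without 1 array, with adjusted p up to 0.056. AT2G17300 had -0.82 and -0.83 (adjusted p = 0.02 and 0.022), and its organ difference lay between -0.46 and 0.48. Its call was lost in 4 of those 12 fits in roots and in 5 in rosettes, with adjusted p up to 0.096 and 0.092. AT1G53610 had 0.59 and 0.57 (adjusted p = 0.017 and 0.023), with a difference between -0.31 and 0.34. Its means in rpt2-3a and Col-0 were 6.66 and 6.07 in roots. In rosettes they were low, 2.45 and 1.88, against a lower quartile of 2.44 over all features there. Its call was lost in 3 of the 12 fits without 1 array in roots and in 4 in rosettes, with adjusted p up to 0.092 and 0.11. For each of these genes all mutant arrays stood on one side of all wild type arrays in both organs, which 15.1% of all features did in roots and 16.7% did in rosettes.

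**Figure D4:**
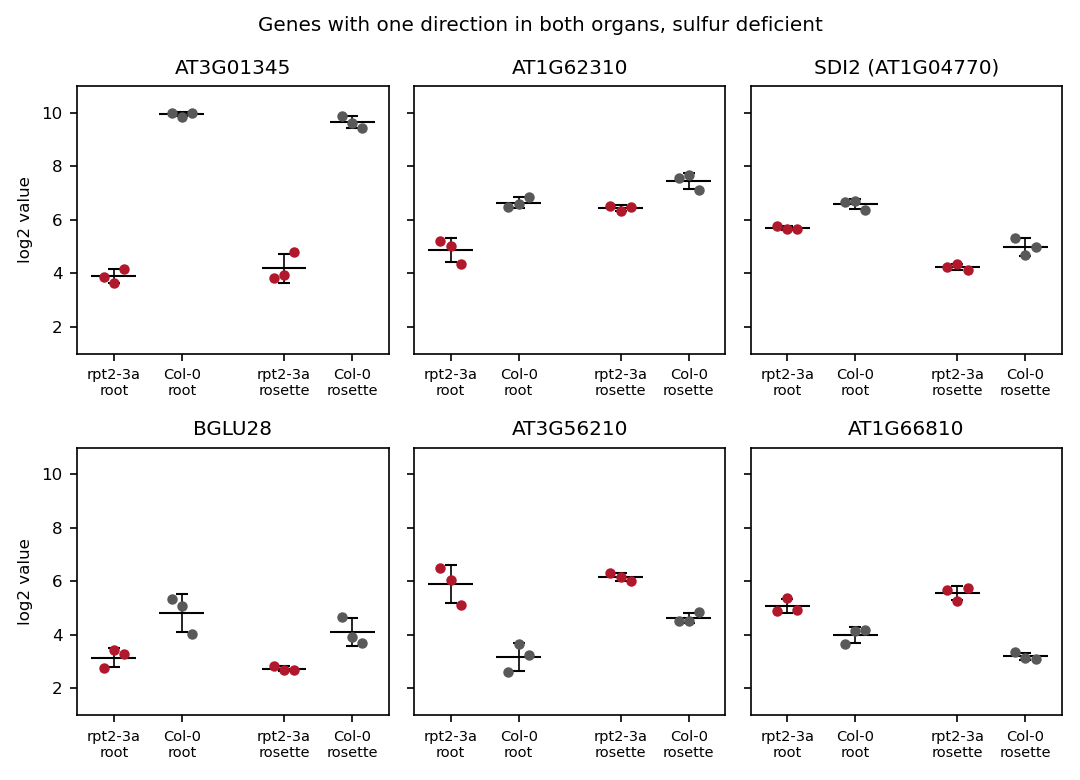
Values on each array (points, log2) for 6 genes whose mutant effect had one direction in both organs under sulfur deficiency, with means (horizontal lines) and SD (bars) of 3 arrays. AT3G01345, AT1G62310, SDI2 and BGLU28 are lower, and AT3G56210 and AT1G66810 higher, on every rpt2-3a array than on every Col-0 array of the same organ.

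Of the genes listed for oxygen shortage, 5 were measured. Such genes are induced when respiration runs short of oxygen. The effect in roots passed as higher for 4 of them, against 0.703% of all features, and the organ difference passed for 2, against 0.367%. None of the 5 passed in rosettes. All 5 organ differences were above 0, with a median of 1.18 against -0.03 over all features. This list, like the others here, was chosen with earlier results of these data known. The counts and the median therefore describe its members and are not a test of the list.

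AT5G10040 had 6.37, 6.49 and 6.6 in rpt2-3a roots against 4.98, 5.2 and 4.86 in Col-0 roots, and 2.62, 2.52 and 2.47 in rpt2-3a rosettes against 2.49, 2.17 and 2.28 in Col-0 rosettes. AT4G33560 had 3.84, 4.1 and 4.44 in rpt2-3a roots against 3.26, 3.28 and 3.18 in Col-0 roots, and 2.51, 2.84 and 2.44 in rpt2-3a rosettes against 2.85, 2.94 and 2.89 in Col-0 rosettes. Both were higher on all mutant root arrays. The organ differences were 1.25 ± 0.17 (adjusted p = 0.0043) and 1.18 ± 0.2 (adjusted p = 0.023).

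AT3G27220, which encodes a kelch-repeat protein, and AT4G10265, of a wound-responsive family, passed in roots (1.3 and 1.17, adjusted p = 0.0043 and 0.0091) and had organ differences of 1.27 and 1.09 that did not pass (adjusted p = 0.063 and 0.14). The trihelix factor gene HRA1 (AT3G10040), a brake on this response, had 7.79, 7.76 and 7.94 in rpt2-3a roots and a wide spread of 6.72, 7.32 and 5.67 in Col-0 roots (1.26 ± 0.29, adjusted p = 0.058). Array 3 of Col-0 roots had the lowest value of that group for all 5 genes, as it did for 32.9% of all features. Without it, in a fit added after the data were seen, 4 of the 5 still passed in roots and 1, AT5G10040, for the organ difference (1.17, adjusted p = 0.015). AT4G33560 then had an organ difference of 1.15 (adjusted p = 0.063).

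Several families of cell wall and defence enzymes each had 1 or 2 members with a positive organ difference that passed, against 0.367% of all features. Of 18 measured chitinases, 2 passed, CHI and AT4G19760. AT4G19760 had 6.52, 6.72 and 6.47 in rpt2-3a roots against 5.67, 5.65 and 5.1 in Col-0 roots, and at most 2.29 on any rosette array. It was higher on every mutant root array, by 1.1 ± 0.15 (adjusted p = 0.0023), with an organ difference of 1.05 ± 0.21 (adjusted p = 0.047). Its neighbour AT4G19750 had 1.22 in roots (adjusted p = 0.011) and 0.87 in rosettes (adjusted p = 0.073), with an organ difference of 0.35 (adjusted p = 0.76), and cross-hybridisation between related chitinase genes was not tested.

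Of 64 measured class III peroxidases 1 passed for the organ difference, as did 1 of 24 berberine bridge enzyme-like genes, 1 of 20 germin-like genes and 1 of 34 expansins and xyloglucan hydrolases. In roots, 3 of the 64 peroxidases passed as higher, against 0.703% of all features, among them AT5G19890 with 10.65, 11 and 10.84 in rpt2-3a roots against 9.99, 10.27 and 10.25 in Col-0 roots (0.66, adjusted p = 0.02). XTH16, a xyloglucan hydrolase, fell in mutant roots (-0.8, adjusted p = 0.033). The family medians of the organ difference were 0.12 for peroxidases, 0.19 for germin-like genes, 0.24 for chitinases and -0.17 for expansins and hydrolases, against -0.03 over all features.

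Of 4 measured genes of glucosinolate synthesis, the sulfur-rich defence compounds of the cabbage family, 2 were higher in mutant roots, against 0.703% of all features, and none passed in rosettes. AT2G25450, whose enzyme modifies aliphatic glucosinolates, had 8.73, 8.73 and 8.61 in rpt2-3a roots against 7.96, 8.22 and 8.03 in Col-0 roots, and 10.28, 10.49 and 10.37 in rpt2-3a rosettes against 10.37, 10.64 and 10.62 in Col-0 rosettes. The roots were apart and the rosettes overlapped. Its organ difference was 0.78 ± 0.16 (adjusted p = 0.048). GSTU20, a glutathione transferase of that pathway, passed in roots (0.57, adjusted p = 0.037), with 0.38 in rosettes (adjusted p = 0.19) and an organ difference of 0.19 (adjusted p = 0.78).

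None of the 3 measured sulfate assimilation genes passed in any of the 3 comparisons. APS3, APS4 and SIR, the genes of ATP sulfurylases and sulfite reductase, had organ differences of 0.45, -0.29 and 0.12 (adjusted p = 0.39, 0.7 and 0.86).

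The 26S proteasome is the complex that holds RPT2. Of its 14 measured subunit genes none passed for the organ difference and none in roots, and 1 passed as higher in rosettes, against 0.273% of all features. AT5G20000, which encodes the ATPase RPT6B and has a close paralog, had 5.65, 5.77 and 5.6 in rpt2-3a rosettes against 4.72, 5.07 and 4.99 in Col-0 rosettes, and 5.52, 5.16 and 4.98 in rpt2-3a roots against 5.03, 5.02 and 5.23 in Col-0 roots. The rosettes were apart and the roots overlapped. The effect was 0.75 ± 0.14 in rosettes (1.68-fold, adjusted p = 0.022) and 0.13 in roots (adjusted p = 0.83), and the organ difference of -0.62 ± 0.2 did not pass (adjusted p = 0.28).

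The median mutant effect of the 14 was 0.06 in roots and 0.25 in rosettes, against -0.01 and 0.02 over all features, and the organ difference was below 0 for 12 of 14, against 55.6% of all features. RPN12a had an organ difference of -0.24, AT4G24820 (the RPN7 subunit) of -0.23 and AT5G23540 (RPN11, which removes ubiquitin from substrates) of -0.21, with adjusted p of 0.66, 0.66 and 0.68.

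QQS, an orphan gene of Arabidopsis that affects starch and protein content, had 5.6, 4.79 and 5.8 in rpt2-3a rosettes against 3.53, 3.49 and 3.63 in Col-0 rosettes, and 3.31, 2.7 and 3.25 in rpt2-3a roots against 2.43, 2.89 and 2.52 in Col-0 roots. Rosettes were apart and roots overlapped. It was 3.6-fold higher in mutant rosettes (1.85 ± 0.23, adjusted p = 0.0012) with 0.47 in roots (adjusted p = 0.47). The organ difference of -1.37 ± 0.32 did not pass (adjusted p = 0.097). Over the 12 fits without 1 array its adjusted p ran from 0.0092, without array 2 of rpt2-3a rosettes, to 0.23, and over the other alternatives from 0.022 to 0.14.

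Photosynthesis genes were low in roots of both genotypes and lower in mutant roots for 1 of 8, against 0.343% of all features. LHB1B2, a light-harvesting chlorophyll protein, had 4.06, 3.74 and 3.95 in rpt2-3a roots against 4.31, 4.54 and 4.72 in Col-0 roots (-0.61 ± 0.12, adjusted p = 0.024), and 11.1, 11.2 and 11.14 in rpt2-3a rosettes against 11.1, 11.09 and 11.1 in Col-0 rosettes. The organ difference was negative for 7 of the 8 and for 55.6% of all features, with a median of -0.37, and passed for none. RCA had a root effect of -0.33 that did not pass (adjusted p = 0.27). The part of such RNA in the other root results was not tested.

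Of 3 measured factors of the AP2/ERF family, 1 passed as lower in rosettes, against 0.57% of all features. ORA47, a transcription factor of jasmonate synthesis, had 3.89, 4.3 and 4.02 in rpt2-3a rosettes against 5.32, 6.1 and 5.27 in Col-0 rosettes (-1.49 ± 0.25, adjusted p = 0.01). In roots it had 3.43, 3.93 and 3.58 in rpt2-3a against 4.04, 5.01 and 4.48 in Col-0 (-0.86, adjusted p = 0.14). Mutant arrays were lower in both organs, and the organ difference was 0.63 (adjusted p = 0.6). Among 7 measured WRKY factors, WRKY29 was higher in mutant roots (0.59, adjusted p = 0.03) and WRKY47 in mutant rosettes (0.62, adjusted p = 0.029), with organ differences of 0.53 and -0.27 (adjusted p = 0.27 and 0.66).

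None of 11 measured autophagy genes passed in any comparison, and the same held for 25 cytochrome P450 genes, 16 nutrient transporters, 73 plant defensins, 11 small heat shock proteins, 6 glutaredoxins, 5 flavonoid genes and 4 subtilases. Of 15 glutathione transferases 2 were higher in mutant roots, GSTU20 and GSTF3 (0.77, adjusted p = 0.0096), and of 16 auxin response genes GH3.3 was (0.6, adjusted p = 0.039). Of 55 UDP-glycosyltransferases GT72B1 was lower in mutant roots (-0.51, adjusted p = 0.043). Of all features, 0.703% passed as higher and 0.343% as lower in roots. None of these lists had a member that passed for the organ difference.

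The same contrast on the 12 arrays at normal supply, which share no array with the deficient ones, passed for 129 features (0.451%), and for 52 to 145 in the fits without 1 array, with the fewest without array 1 of Col-0 rosettes. Of the 134 organ differences called under deficiency, 126 (94%) had the same sign at normal supply, against 52.5% of all features. They were mostly smaller there. The 105 positive ones had a median of 1.18 under deficiency and 0.69 at normal supply, and the 29 negative ones had medians of -1.2 and -0.39. Selection under deficiency favours larger values there, so the gap between the medians is not a test.

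Of the 134, 17 passed at normal supply with the same sign, which is 13.2% of the 129 called there, and 9 of the 17 had a single gene. AT5G15360 differed between organs by -3.1 under deficiency and -2.59 at normal supply (adjusted p = 0.0041 at normal supply). AT3G22235 did so by -1.77 and -2.04 (adjusted p = 0.0041), and AT3G48640 by -2.06 and -2.66 (adjusted p = 0.02). The same genotype and organ thus stood apart for these 3 genes whichever the supply.

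AT1G49450 had organ differences of 1.65 and 1.73 (adjusted p = 0.0039 at normal supply), AT5G10040 of 1.25 and 1.1 (adjusted p = 0.025), and AT5G57760 of -1.3 and -1.48 (adjusted p = 0.021). The other 3 genes were AT4G25410 (1.09 and 1.69), AT5G67620 (1.09 and 0.99) and ATPMEPCRB, a pectin methylesterase gene (-1.04 and -1.23). They are named because they complete this count, and not by the rule for named genes.

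Several of the leading genes under deficiency had little or no organ difference at normal supply. AT1G75290 stood at -1.56 under deficiency and 0.08 at normal supply, AT4G31330 at -1.35 and 0, and CHI at 1.9 and 0.22. AT4G30380 stood at 1.83 and 0.33. For none of these 4 did the difference between the supplies pass in the fit of all 24 arrays (adjusted p = 0.4, 0.2, 0.54 and 0.21).

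**Figure D5:**
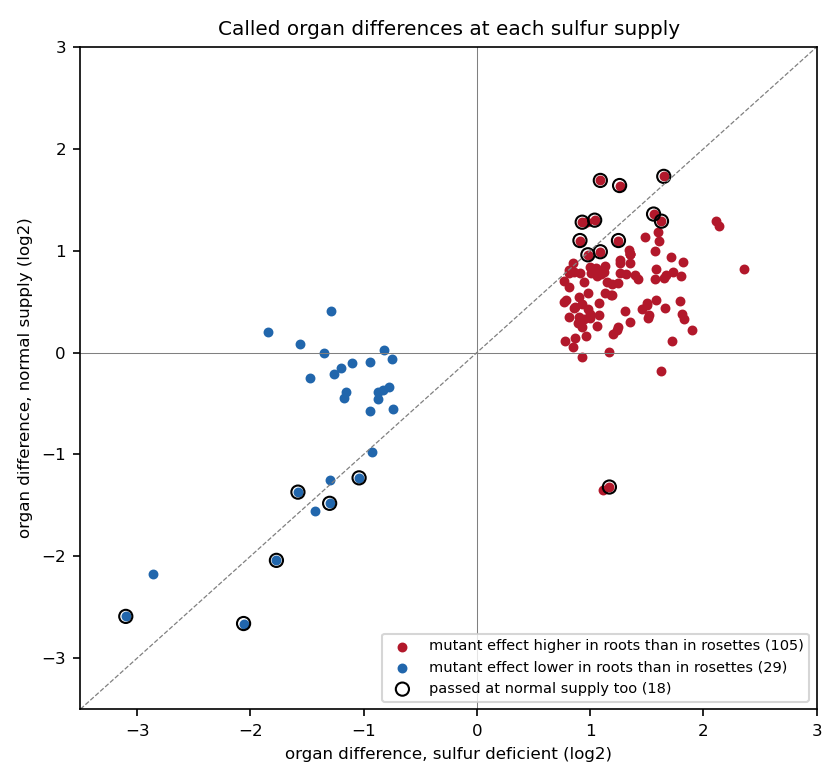
Organ difference of the mutant effect under sulfur deficiency (horizontal axis, log2) against the same difference at normal supply (vertical axis, log2) for the 134 features called under deficiency, with open circles for those that passed at normal supply, 17 with the same sign and 1 with the opposite one. Of the points, 126 lie in the quadrants of one sign, mostly nearer to the horizontal axis than the dashed line of equal values.

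The difference between the organ differences at deficient and normal supply passed for 3 of 28583 features (0.0105%), all of them among the 134. The named one was AT5G52050, a transporter gene of the MATE family, which export organic compounds. It had 3.88, 3.71 and 3.38 in rpt2-3a rosettes against 4.71, 4.31 and 4.62 in Col-0 rosettes under deficiency, and 5.62, 5.34 and 5.27 against 4.41, 4.99 and 5.3 at normal supply. In roots it had 4.48, 4.88 and 4.31 in rpt2-3a against 4.39, 4.32 and 4.11 in Col-0 under deficiency, and 4.74, 4.58 and 4.75 against 5.39, 5.47 and 5.65 at normal supply. The mutant was lower in deficient rosettes and in normally supplied roots, and overlapped with the wild type in the other pairs.

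The organ difference of AT5G52050 was 1.17 under deficiency (adjusted p = 0.045) and -1.32 at normal supply (adjusted p = 0.046), and the difference between them was 2.5 (adjusted p = 0.013). At an unadjusted p under 0.05 the difference between supplies held for 2457 features (8.6%), and the count of calls was 30 without array 1 of deficient Col-0 rosettes, 10 without array 3 of rpt2-3a rosettes at normal supply and 6 without array 3 of Col-0 rosettes at normal supply.

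Of the 23 features called in both organs with one sign under deficiency, 19 had that one sign in both organs at normal supply and 5 were called in both organs there, against 0.0385% of all features. AT3G01345 had effects of -5.24 in roots and -6.04 in rosettes at normal supply (adjusted p = 1.4e-05 and 4.6e-06), and AT1G62310 of -1.93 and -1.34 (adjusted p = 0.00043 and 0.0045). AT1G66810 had 1.12 and 2.38 (adjusted p = 0.013 and 5.6e-05).

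The sulfur markers had other values at normal supply. SDI2 had effects of -0.01 in roots and -0.52 in rosettes at normal supply (adjusted p = 1 and 0.27), and BGLU28 had -0.12 and -0.06 (adjusted p = 0.96 and 0.95). MSRB6, which passed in neither organ under deficiency, was lower in mutant rosettes at normal supply (-1.1, adjusted p = 0.0011), with an organ difference of 1.19 there (adjusted p = 0.0099). The called feature of AT3G56210 stood at 1.22 and 1.06 (adjusted p = 0.61 and 0.45), with neither effect passing.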

How the data were processed

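RNA of 24 samples was measured on single-colour Affymetrix arrays. The series' value table was the only file used, and its deposited values were read as log2 expression. Per the submitters' processing notes, the program Transcriptome Analysis Console was used. The sources used here give neither its version nor how the values were normalized nor the base of the logarithm. Scale and centring are therefore unknown, and folds assume base 2. Precision is limited by how many arrays there are.

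Features were named through the platform annotation: 16746 carried 1 gene, 758 several and 11079 none. Of the 16746, 16601 matched the RefSeq table of TAIR10.1, from which no coordinates were taken. With R 4.3.3, the lmFit, contrasts.fit and eBayes functions of limma 3.58.1 were applied to the values of the 12 deficient arrays with 4 group means, 8 residual degrees of freedom, no filter and no block. Tests were two-sided, with Benjamini-Hochberg adjustment over 28583 features, and intervals are at 95%. The 12 arrays at normal supply had their own fit, and the difference between supplies used all 24 arrays (16 residual degrees of freedom). The fit was also run on simulated data with independent noise and known effects, which cannot show how the calls depend on single arrays. The sources used here name no scan date or batch.

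Named genes have features with exactly 1 gene: the 12 highest and 12 lowest organ differences that passed, the 8 highest and 8 lowest effects shared by both organs (8 genes passed in all), SDI2, BGLU28, QQS, proteasome subunits that passed, and, from each list, the members with the smallest p, at most 4. Genes named outside this rule complete a count. The members and the 27 lists were chosen with earlier results of these data known. Same-numbered arrays correlated in their deviations from the group means with r from -0.07 to 0.11, over 0.1 in 2 of 18 pairs, so numbers were not treated as pairs. Alternatives were other normalizations, a filter on dim features, other variance models, array weights, blocks, and leaving out each array.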

Additional observations from a re-analysis of the deposited data

Results flagged for a closer look

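Each gene below had a mutant effect, rpt2-3a minus Col-0, that differed between roots and rosettes under sulfur deficiency by the test of the difference itself (limma, adjusted p under 0.05), and no explanation was weighed. The log2 difference was positive, with the effect more positive in roots, for AT5G38910 (2.11), CHI (1.9), AT4G30380 (1.83), AT1G49570 (1.71), BHLH92 (1.66), AT4G33150 (1.65), AT1G49450 (1.65), AT1G09500 (1.61), AT5G28237 (1.6), AT1G05340 (1.57), AT1G30700 (1.52) and AT2G31945 (1.46). It was negative for AT5G15360 (-3.1), AT3G48640 (-2.06), AT3G22235 (-1.77), AT1G75290 (-1.56), AT3G16670 (-1.47), AGL38 (-1.43), AT4G31330 (-1.35), AT1G66810 (-1.3), AT5G57760 (-1.3), AT3G61826 (-1.29), AT4G37220 (-1.26) and AT3G45160 (-1.17). AT5G52050 stood out in another way, since its organ difference under deficiency exceeded that at normal supply by 2.5 in the fit of all 24 arrays.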

How the results depend on the processing

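None of the 24 named organ differences changed sign under any alternative run. The same held for the called effects of the named shared genes, BGLU28 and QQS. Signs of the other called features were not compared. The organ difference of SDI2, -0.15 and not called, ran from -0.3 to 0.01 without 1 array, with 0.01 without array 2 of Col-0 rosettes. The 134 organ differences became 91 to 193 under the alternatives other than leaving out arrays, and 38 to 134 without 1 array. With the replicate number as a block, 124 passed, 106 of them among the 134. With the replicate number within each genotype as a block, which ties roots to rosettes, 98 passed, 79 of them among the 134. The root calls, 299, became 96 with root arrays only, 83 at 2-fold or more and 110 to 303 without 1 array. The rosette calls, 241, became 122 with rosette arrays only, 76 at 2-fold or more and 97 to 256 without 1 array. Leaving out arrays also gave 52 to 145 organ differences at normal supply, 2 to 30 differences between supplies, 14 to 29 shared effects and 0 to 4 opposite ones. With a trended, robust variance model these 4 counts were 279, 26, 36 and 7. Differences between supplies numbered 18 without dim features. Shared effects numbered 11 with the arrays of 1 organ at a time and 10 at 2-fold or more. Opposite effects numbered 6 with the replicate block, 1 with all 24 arrays, 1 with the arrays of 1 organ at a time and 0 at 2-fold or more. The 129 organ differences at normal supply split into 82 higher and 47 lower, against 67 and 63 after centring each array on its median. Of the oxygen shortage list, 1 organ difference passed without array 3 of Col-0 roots, against 2. The causes of these shifts were not tested. Of the 24 named organ differences, 10 passed under every alternative. The 3 arrays in each group limit the precision.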
